A study of Caenorhabditis elegans with 21 samples.

Results

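Early embryos of Caenorhabditis elegans that lack both the Argonaute gene nrde-3 and the histone methyltransferase gene set-25 were compared with wild-type embryos by RNA-seq. The comparison rests on 6 of the 21 libraries of the series, chosen by their genotype labels and by no measured value. The double mutant, nrde-3 set-25, carries set-25(n5021) on chromosome III together with nrde-3(tm1116) on X, and has 3 libraries. The wild type is the Bristol strain N2, also with 3 libraries. Set beside them, with 3 libraries each, are the single mutants nrde-3(tm1116) and lin-61(tm2649), the lin-61 mutation lying on chromosome I, and the double mutant lin-61 set-25, which combines lin-61(tm2649) with set-25(n5021). All were whole embryos younger than the bean stage, raised at 20 °C from synchronized L1 larvae, and the labels name no treatment. The series also holds early embryos labelled nrde-3 met-2 and lin-61 met-2, at 20 °C and with 3 libraries each. They enter the common fit but are not tested against the double mutant. The labels number 3 replicates per genotype but their growth text speaks of 2 independent biological replicates, so the spread between libraries may be partly technical.

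The library titles of nrde-3 set-25 carry the prefix 1121 and those of N2 the prefix 875, so within this pair genotype and prefix cannot be told apart. The nrde-3 and lin-61 set-25 libraries share the prefix 1121, and the lin-61 libraries share 875 with N2. What the prefix stands for is not given in the labels. The differences from N2 that are largest are therefore given beside the levels of the other genotypes.

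NRDE-3 is an Argonaute protein of somatic cells that carries small interfering RNAs into the nucleus, where they direct silencing of matching transcripts. SET-25 places methyl groups on lysine 9 of histone H3, up to the trimethylated state, a mark of silent chromatin that in worms is concentrated on repeats and on the outer parts of the chromosomes. LIN-61, a protein with MBT repeats that bind methylated histone tails, is named in the title of the study beside NRDE-3 as another route of recruitment for the enzyme that makes trimethylated H3 lysine 9. The question the comparison addresses is which transcripts change when NRDE-3 and SET-25 are both missing.

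Reads were counted by the authors in fixed windows of 500 bp over all 6 chromosomes, 200547 windows in all, without strand and without names of genes or repeats. Windows are named here by chromosome and first base on build ce10, so that X 4354501 runs from base 4354501 to base 4355000. Levels are CPM, the reads of a window relative to the TMM-scaled depth of its library. The TMM factors, which multiply the depth, were 1.18, 1.08 and 0.990 in nrde-3 set-25 a, b and c. In N2 a, b and c they were 0.788, 0.772 and 0.758. They ran from 0.737 to 0.862 with the prefix 875 and from 0.956 to 1.27 with 1121. The scaling therefore also differs with the prefix. The nrde-3 set-25 libraries a, b and c held 24194167, 26088676 and 22275571 reads, and the N2 libraries a, b and c held 67553226, 56855895 and 54839178. Zero reads over the 3 libraries of a group allow a level of up to 0.0382 CPM in nrde-3 set-25, against 0.0217 CPM in N2, by counting error alone. The 97353 windows that passed the filter on low counts held between 99.27 and 99.67% of the reads of each of these 6 libraries. Reads that match several places in the genome may have been shared or dropped by the authors' counting, which is not described in the sources used here, so values in repeated sequence are uncertain.

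Because the windows carry no gene names, the mutated genes were looked for only as lowered stretches on the chromosomes of their labels. On chromosome III the window III 13288001 had 0 reads in all 3 nrde-3 set-25 libraries, against 21.4, 25.2 and 29.4 CPM in N2. That is at least 654-fold lower, with 3 reads over the group taken as the floor. It also had 0 reads in the 3 lin-61 set-25 libraries, but nrde-3 averaged 17.2 CPM and lin-61 21.2 CPM, so it was empty in both groups labelled set-25(n5021). The stretch around it, III 13286501 to 13293000, summed to 25.8 ± 1.39 CPM in nrde-3 set-25, against 139 ± 18.6 CPM in N2 (SD, n = 3 each). On X, the window X 372001 stood at 2.64, 4.28 and 4.78 CPM in nrde-3 set-25, against 69.1, 83.5 and 90.6 CPM in N2 (log2 fold change -4.38 ± 0.30 SE, adjusted p = 2.17e-09). It was at 3.03 CPM in nrde-3, whereas lin-61 set-25 stood at 50.2 CPM and lin-61 at 75.9 CPM. In these 5 genotypes each stretch follows 1 mutation label and not the prefix. The 2 remaining genotypes, labelled nrde-3 met-2 and lin-61 met-2, do not keep to this. III 13288001 averaged 0.0113 CPM in nrde-3 met-2 and 0 CPM in lin-61 met-2, although neither label carries set-25. X 372001 averaged 2.91 CPM in lin-61 met-2, although that label carries no nrde-3 mutation. Neither genotype is tested against the double mutant. Their 6 libraries enter the common fit, the level classes and the additive model, and the comparison with N2 was also fitted without them.

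Transcript levels changed over a large part of the genome. Of the windows tested, 14873 were higher and 13264 lower in nrde-3 set-25 than in N2, with adjusted p below 0.05 by edgeR's quasi-likelihood test, which is 15.3% and 13.6% of the windows, or 28.9% in either direction. The raised windows were mostly quiet in wild type: their median level was 1.08 CPM in nrde-3 set-25, against 0.263 CPM in N2. The filter on low counts drew on all 21 libraries, so windows nearly silent in N2 were tested only where other genotypes held reads. That favours rises among such windows, so their low N2 levels are a description. The lowered windows were the better expressed ones, with a median of 4.99 CPM in nrde-3 set-25, against 10.9 CPM in N2. The median log2 fold change was 1.87 over the raised windows, with an interquartile range of 1.27 to 2.73, and -1.08 over the lowered windows, beside 0.04 over all windows tested. All nrde-3 set-25 libraries lay above all N2 libraries in 14352 of the raised windows, as they did in 24.6% of all windows tested. No read was found in N2 in 211 raised windows, and at most 3 reads in 1233, beside 327 and 2177 of all 97353 windows tested. In the lowered windows, 13146 had all nrde-3 set-25 libraries below all N2 libraries, as 24% of all windows tested did. A change of at least 2-fold was reached by 12782 raised and 7526 lowered windows, 13.1% and 7.73% of the windows tested. At least 4-fold was reached by 6772 raised windows and by 1262 lowered ones, beside 8891 of all windows tested, called or not (9.13%).

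The levels of the other genotypes in these windows are given as a description, since the windows were chosen against the same N2 libraries. The raised windows had medians of 0.499 CPM in nrde-3, 1.56 CPM in lin-61 set-25 and 0.772 CPM in lin-61, which shares the N2 prefix. The lowered windows had medians of 6.06 CPM in nrde-3 and, in lin-61 set-25, 4.56 CPM, both nearer to the double mutant, whereas lin-61, at 9.44 CPM, was nearer to N2. In an additive model with a term for each mutation and 1 for the prefix, which takes the effects of the mutations to add on the log scale, 7146 windows were higher and 893 lower. Without the libraries labelled met-2 that model gave 3739 higher and 886 lower. That model differs from the first both in the prefix term and in its additive form, so the change in the counts cannot be assigned to the prefix term.

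Among the nrde-3 set-25 libraries, replicate a stood out: it was the highest of the 3 in 9298 raised windows, 62.5%, and the lowest of the 3 in 7380 lowered windows, 55.6%. Without it, 9395 windows were higher and 9029 lower. Without N2 replicate c, 9113 were higher and 9990 lower.

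The raised windows held a few percent of all reads. They took 7.15, 5.92 and 5.66% of the reads of the nrde-3 set-25 libraries, against 2.03, 2.08 and 1.58% of the N2 libraries. The lowered windows took 20.7, 21.95 and 21.1% of the reads in nrde-3 set-25, against 40.0, 35.7 and 38.3% in N2. These shares were chosen by the same contrast and are given as a description.

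Windows were ranked among those called that averaged at least 1 on the log2 CPM scale over all 21 libraries. The largest rises among them came from windows silent or nearly so in wild-type embryos and well expressed in the double mutant. Such windows pass the filter and this floor only through the other genotypes. The highest log2 fold change was that of X 4354501, at 28.7, 16.4 and 23.4 CPM in nrde-3 set-25, against 0, 0.0229 and 0.0242 CPM in N2. That is 1790 reads against 2, a ratio of 1576 once scaled for depth (95% Clopper-Pearson interval 436 to 13027), and the adjusted p was 1.7e-08. The groups are far apart and the 3 mutant libraries lie close together. The levels at X 4354501 were 1.12 CPM in nrde-3, 81.7 CPM in lin-61 set-25 and 5.81 CPM in lin-61. Its neighbour X 4353501 behaved alike, with 30.5, 24.2 and 25.8 CPM in nrde-3 set-25 against 0.0189, 0.0457 and 0.0242 CPM in N2.

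II 8358501 had no read in any of the 3 N2 libraries or the 3 nrde-3 libraries. It stood at 3.41, 1.25 and 1.46 CPM in nrde-3 set-25, 164 reads in all, which is at least 96.3-fold higher than N2. In lin-61 set-25 it averaged 16.6 CPM. On the left arm of V, V 4647501 was the most abundant of the 10, at 97.2, 52.8 and 84.3 CPM in nrde-3 set-25, against 0.207, 0.640 and 0.0483 CPM in N2 (log2 fold change 8.02 ± 0.75 SE, adjusted p = 1.25e-07). It averaged 3.58 CPM in nrde-3, 261 CPM in lin-61 set-25 and 22.5 CPM in lin-61. A further window of that arm, V 4435001, reached 12.8, 5.17 and 7.79 CPM in nrde-3 set-25, with 0.0377, 0.0229 and 0 CPM in N2.

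The other windows among the 10 highest lay on II, IV and V. II 8446501 stood at 12.9, 7.84 and 6.42 CPM in nrde-3 set-25, against 0.0189, 0.0457 and 0 CPM in N2. IV 4516501 stood at 7.07, 3.78 and 3.14 CPM in nrde-3 set-25, against 0.0566, 0 and 0 CPM in N2. Each had 3 reads in N2, and the scaled ratios were 428 (146 to 2080) for II 8446501 and 221 (74.96 to 1075) for IV 4516501. In the centre of V, V 12404501 averaged 6.08 CPM in nrde-3 set-25, against 0.0157 CPM in N2, V 13411001 averaged 3.17 and 0.00628 CPM, and V 12378001 averaged 6.88 and 0.0282 CPM. V 16707001 was the least even of them, with 9.53, 0.713 and 3.41 CPM in nrde-3 set-25 against 0, 0.0229 and 0.0242 CPM in N2 (adjusted p = 0.0118). Its call was lost when nrde-3 set-25 replicate a was left out (log2 fold change 6.78, adjusted p = 0.0625), and it averaged 109 CPM in the libraries labelled nrde-3 met-2.

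**Figure D1:**
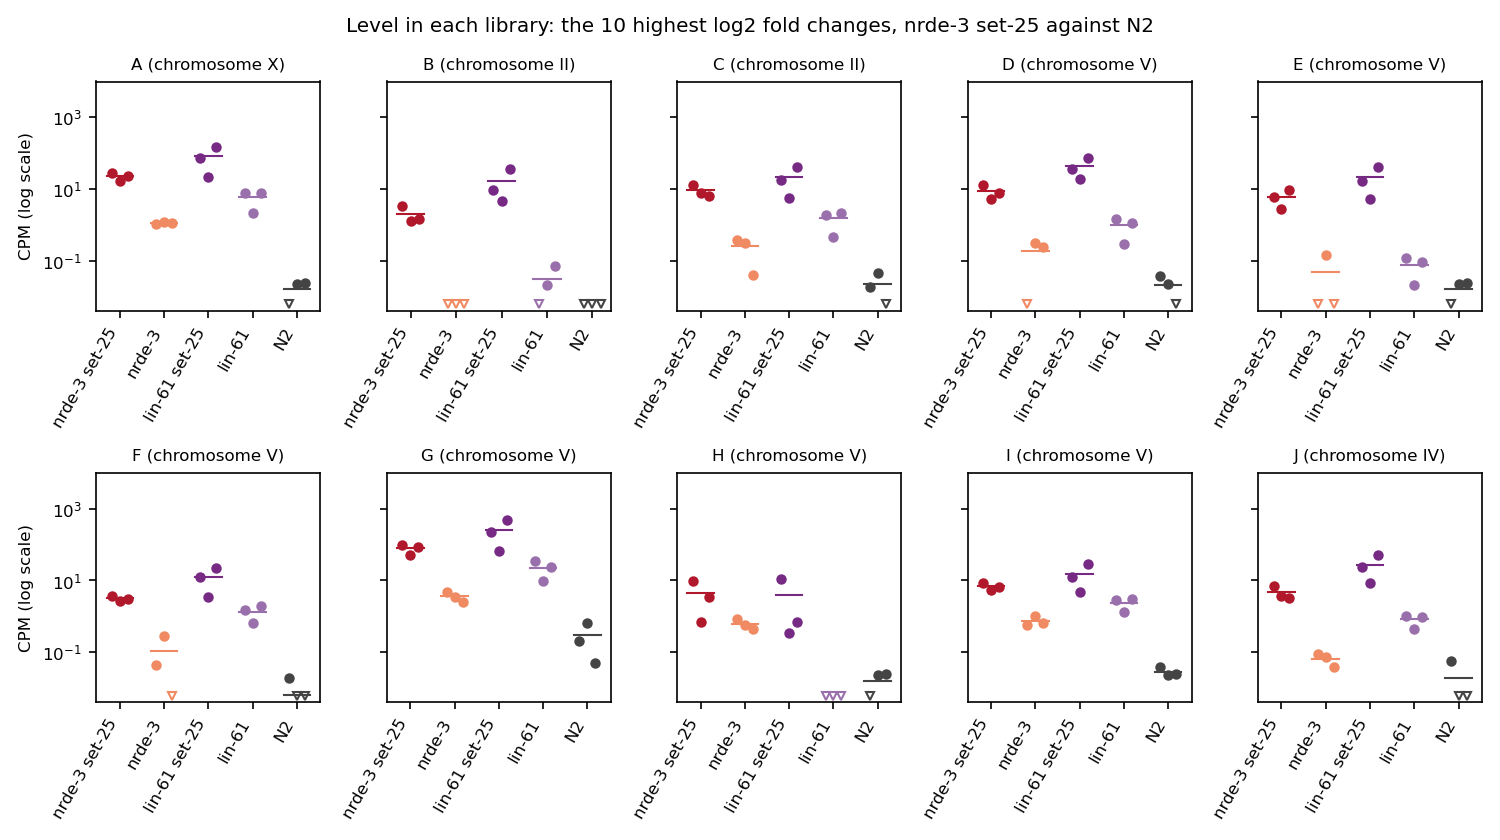
CPM (log scale) of the 10 windows with the highest log2 fold changes, in 3 libraries each of nrde-3 set-25, nrde-3, lin-61 set-25, lin-61 and N2, left to right. Dots are libraries, lines are group means, and open triangles at the bottom are libraries with 0 reads. The panels are X 4354501 (A), II 8358501 (B), II 8446501 (C), V 4435001 (D), V 12404501 (E), V 13411001 (F), V 4647501 (G), V 16707001 (H), V 12378001 (I) and IV 4516501 (J). Every nrde-3 set-25 library lies above every N2 library in all 10, which was a condition of their choice.

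Against the nrde-3 single mutant, which shares the prefix 1121, 9 of these 10 windows were again higher in nrde-3 set-25, beside 2.46% of all windows tested. The log2 fold changes of the 10 ran from 2.88 to 9.10, and the lowest, at V 16707001, was the one not called (adjusted p = 0.319). Both comparisons use the same nrde-3 set-25 libraries. Against lin-61 set-25, 5 of the 10 were lower in nrde-3 set-25, beside 1.67% of all windows (0.612% were higher), and the other 5 were not called. The mean in lin-61 set-25 was above that in nrde-3 set-25 in 9 of the 10. The 10 had to average at least 1 log2 CPM over all 21 libraries, those of lin-61 set-25 included. That floor favours windows high in lin-61 set-25, so these counts are descriptions. The calls against lin-61 set-25 depended on single libraries. Without lin-61 set-25 replicate c the call at X 4354501 was lost (log2 fold change -1.08, adjusted p = 0.357), as were those at II 8358501 (adjusted p = 0.0535), V 4435001 (0.109) and V 13411001 (0.255). Leaving out nrde-3 set-25 replicate b or c also lost X 4354501 (0.169 and 0.113), V 4435001 (0.0857 and 0.0631) and V 13411001 (0.134 and 0.106). With the prefix as a term, 8 of the 10 stayed higher, beside 7.34% of all windows tested. Without the libraries labelled met-2 as well, 7 of the 10 did, beside 4.31%. The 10 were chosen for their rise over N2 in the same libraries, so these counts are descriptions too.

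Raised windows often lay side by side. Joined across gaps of at most 1 window, they formed 6149 regions, of which 1137 spanned at least 4 windows and 251 at least 5 kb. The widest ran over 18 kb in the centre of V, from 6143501 to 6161500, with all 36 of its windows raised. It summed to 76.5, 49.2 and 46.9 CPM in nrde-3 set-25, against 10.2, 11.9 and 4.71 CPM in N2. The same stretch of V averaged 15.5 CPM in nrde-3, 207 CPM in lin-61 set-25 and 49.3 CPM in lin-61. A second region just to its right, V 6164501 to 6180500, summed to 67.0 ± 21.9 CPM in nrde-3 set-25, against 16.2 ± 7.56 CPM in N2, with 112 CPM in lin-61. On X, 3227501 to 3244000 summed to 40.5 ± 10.7 CPM in nrde-3 set-25, against 6.44 ± 2.13 CPM in N2. In the centre of IV, 7589001 to 7605500 summed to 32.6, 13.8 and 13.8 CPM in nrde-3 set-25, against 2.66, 2.90 and 2.08 CPM in N2. In all 4 regions the nrde-3 set-25 libraries lay above the N2 libraries, replicate a was the highest, and the nrde-3 mean lay below that of nrde-3 set-25. The lin-61 single mutant was as high as the double mutant in the regions of X and IV. There lin-61 averaged 44.3 and 20.2 CPM, and nrde-3 set-25 averaged 40.5 and 20.1 CPM. These are sums over regions joined from called windows, so the differences are descriptions.

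The most abundant raised windows changed by smaller factors. I 6844501 stood at 764, 605 and 808 CPM in nrde-3 set-25, against 358, 352 and 217 CPM in N2 (log2 fold change 1.23 ± 0.28 SE, adjusted p = 0.00187), and its neighbour I 6844001 averaged 709 CPM in nrde-3 set-25, against 283 CPM in N2. V 14686501 stood at 583, 561 and 628 CPM in nrde-3 set-25, against 408, 391 and 385 CPM in N2. Its log2 fold change of 0.58 was no longer called when any 1 of the 6 libraries was left out, with adjusted p from 0.0681 to 0.140. At V 14686501 nrde-3 (mean 600 CPM) and lin-61 set-25 (mean 525 CPM) were above N2 as well. The mean was 320 CPM for lin-61, which shares the N2 prefix. Compared with nrde-3, the double mutant showed a log2 fold change of -0.023 there and was not called (adjusted p = 0.970). II 10599001, at 6.61, 3.96 and 5.42 CPM in nrde-3 set-25, against 0.0943, 0.0686 and 0.0483 CPM in N2, was among the windows with the lowest adjusted p (4.19e-08). It averaged 5.33 CPM in nrde-3 set-25, 0.568 CPM in nrde-3 and, in lin-61, 4.49 CPM.

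**Figure D2:**
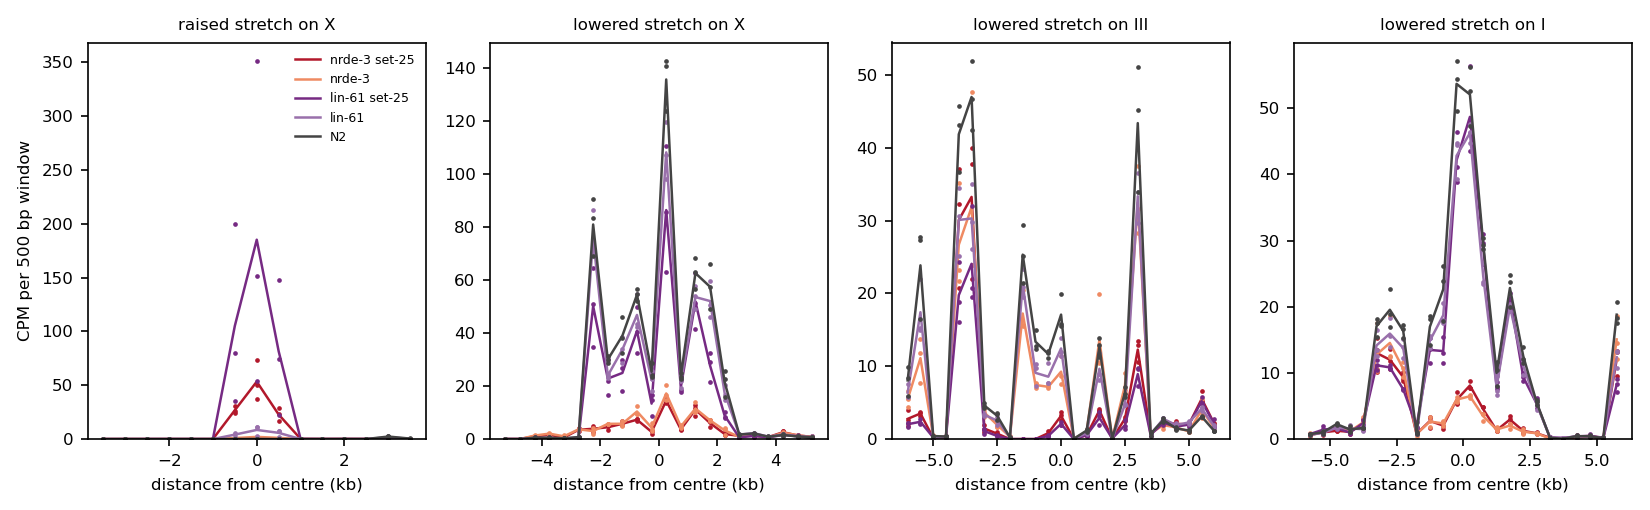
CPM per window of 500 bp (vertical axis) along 4 stretches, by distance from the centre of the stretch in kb; lines are means of 3 libraries and dots are libraries of nrde-3 set-25, nrde-3, lin-61 set-25, lin-61 and N2. From left to right are the raised stretch of X around X 4354501, the lowered stretch of X from 372001, that of III around 13288001 and that of I around 7153501; the stretch of III is low in both genotypes labelled set-25, and the lowered stretches of X and I are low in both labelled nrde-3.

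When set beside the other genotypes, the largest falls were of 3 kinds, a grouping made after the values were seen. The first were the stretches that follow a mutation label, apart from the libraries labelled met-2. Beside those on III and X described above, the stretch I 7151001 to 7157000 summed to 54.7, 51.5 and 49.4 CPM in nrde-3 set-25, against 265, 246 and 277 CPM in N2. Its window I 7153501 fell by 3.18 ± 0.20 (SE) on the log2 scale (adjusted p = 6.36e-10), with 7.14, 5.42 and 5.24 CPM in nrde-3 set-25, against 54.5, 49.5 and 57.1 CPM in N2. The nrde-3 mean was 5.96 CPM and the lin-61 set-25 mean 42.2 CPM, so both of these genotypes labelled nrde-3 were low. The libraries labelled lin-61 met-2 were as low, at 6.29 CPM, although that label carries no nrde-3 mutation. Against lin-61 set-25, with the same prefix, the log2 fold change was -2.83 (adjusted p = 5.41e-09), and at X 372001 it was -3.69 (adjusted p = 4.92e-08). Over the whole stretch X 372001 to 377000, nrde-3 set-25 summed to 61.5 ± 7.64 CPM and N2 to 531 ± 42.8 CPM (SD, n = 3 each), with nrde-3 at 73.2 CPM and lin-61 set-25 at 347 CPM. In the additive model on all libraries neither I 7153501 nor X 372001 was called (log2 fold changes -0.84 and -1.07, adjusted p = 0.569 and 0.526). Without the libraries labelled met-2 that model called both lower, at -3.16 and -3.43 (adjusted p = 7.55e-05 and 0.00333).

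The second kind was low in every genotype with the prefix 1121 and high in both with 875. I 109001 had the tightest values, with 13, 13.7 and 13.5 CPM in nrde-3 set-25, against 178, 169 and 191 CPM in N2 (log2 fold change -3.74 ± 0.21 SE, adjusted p = 1.02e-10). It averaged 15.9 CPM in nrde-3, 12.4 CPM in lin-61 set-25 and 171 CPM in lin-61. V 18968001 had the same order, with 0.211, 0.392 and 0.182 CPM in nrde-3 set-25, against 6.77, 6.60 and 7.61 CPM in N2, and 0.632, 0.407 and 4.50 CPM on average in nrde-3, lin-61 set-25 and lin-61. III 5020501 averaged 0.859 CPM in nrde-3 set-25, against 15 CPM in N2, I 12486001 averaged 0.532 and 8.99 CPM, and I 12905501 averaged 11.4 and 153 CPM. Their lin-61 means were 11.5, 5.45 and 116 CPM. IV 7499501 belonged here too, at 1.23, 1.25 and 1.59 CPM in nrde-3 set-25, but its N2 libraries were uneven, at 41.4, 22.3 and 8.50 CPM. In the additive model without the libraries labelled met-2, these 6 windows had adjusted p from 0.0536 to 0.752 and were not called. With those libraries V 18968001 was called (log2 fold change -1.89, adjusted p = 0.04999) and the other 5 were not.

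The third kind were 3 windows of the right arm of V with very high and uneven levels in N2. V 17130001 stood at 149, 100.2 and 120.2 CPM in nrde-3 set-25, against 3907, 610 and 792 CPM in N2, and V 17428501 at 150.1, 104 and 123 CPM in nrde-3 set-25, against 3994, 614 and 799 CPM in N2. V 17117501 averaged 3.47 CPM in nrde-3 set-25, against 72.6 CPM in N2. V 17130001 averaged 299 CPM in nrde-3, 208 CPM in lin-61 set-25 and 1727 CPM in lin-61. N2 replicate a was several times above replicates b and c in each. Without it the log2 fold changes of V 17117501, V 17130001 and V 17428501 were -2.85, -2.55 and -2.53, against -4.38, -3.84 and -3.84 with all libraries, and all 3 stayed called. In the additive model none of the 3 was called and their sign turned, to 1.42, 0.81 and 0.86 (adjusted p from 0.700 to 0.802). Without the libraries labelled met-2 the values were -2.50, -2.07 and -2.07, again not called (adjusted p from 0.309 to 0.354). A set of 12 windows between V 17115501 and 17131500 had means of 77.6 to 125.8 CPM in nrde-3 set-25, against 1036 to 1784 CPM in N2. Together they took 0.204, 0.129 and 0.133% of the reads in nrde-3 set-25, against 3.50, 0.538 and 0.684% in N2. Chromosome V carries the tandem array of 5S ribosomal RNA genes in this species, but whether these windows belong to it cannot be read from counts without names, and the part that depletion of ribosomal RNA has in the values was not tested.

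**Figure D3:**
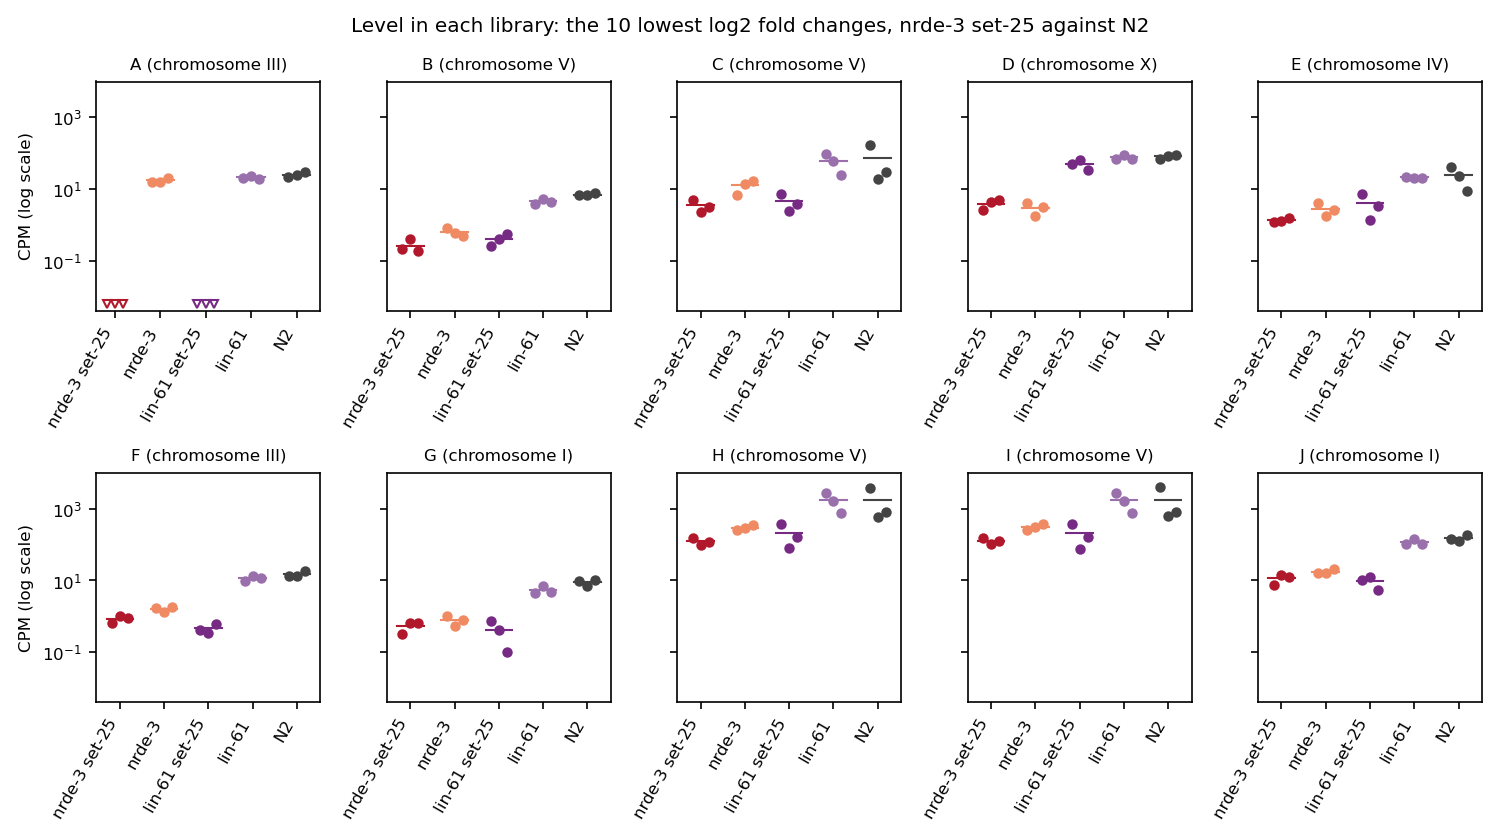
CPM (log scale) of the 10 windows with the lowest log2 fold changes, in 3 libraries each of nrde-3 set-25, nrde-3, lin-61 set-25, lin-61 and N2, left to right. Dots are libraries, lines are group means, and open triangles at the bottom are libraries with 0 reads. The panels are III 13288001 (A), V 18968001 (B), V 17117501 (C), X 372001 (D), IV 7499501 (E), III 5020501 (F), I 12486001 (G), V 17130001 (H), V 17428501 (I) and I 12905501 (J); the lin-61 mean lies nearer to N2 than to nrde-3 set-25 in every panel, and the nrde-3 mean nearer to nrde-3 set-25 in all but A.

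Of the 10 windows with the lowest log2 fold changes, only III 13288001 was called against nrde-3, beside 0.232% of all windows tested that were lower there. X 372001 alone was lower than in lin-61 set-25. On X, the window with the lowest fitted value was X 16558501, with 0 reads in nrde-3 set-25 against 1.36, 0.594 and 0.362 CPM in N2, which is at least 21.4-fold lower. It was low in nrde-3, at 0.0430 CPM, and in lin-61 set-25, at 0.123 CPM, so it does not follow the nrde-3 label.

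The 13264 lowered windows formed 6438 regions. Most regions of either direction were 1 window, and the median width was 0.5 kb for both, but wide regions were fewer among the lowered ones, of which 904 spanned at least 4 windows and 100 at least 5 kb. The widest, X 4839001 to 4850000, covered 11 kb and summed to 136 ± 14.2 CPM in nrde-3 set-25, against 272 ± 1.76 CPM in N2. X 8287001 to 8296500 summed to 229, 289 and 235 CPM in nrde-3 set-25, against 539, 500.2 and 583 CPM in N2. II 12289001 to 12298500 summed to 38.8 CPM in nrde-3 set-25, against 87.7 CPM in N2, and III 1077001 to 1086000 to 66.6 and 117 CPM. Each was about as low in lin-61 set-25, with means of 149, 217, 45.9 and 57.2 CPM in that order. The nrde-3 means were below those of N2 too, at 162, 240, 56.2 and 79.8 CPM. In each region lin-61, which shares the N2 prefix, lay above nrde-3 set-25, nrde-3 and lin-61 set-25, at 244, 653, 65.9 and 90.5 CPM.

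Some of the windows with the highest levels were among the lowered ones. They carry no names, and the part that depletion of ribosomal RNA has in their values was not tested. IV 11326501 stood at 2947, 3459 and 4468 CPM in nrde-3 set-25, against 11079, 10702 and 11929 CPM in N2 (log2 fold change -1.63 ± 0.28 SE, adjusted p = 0.00015). IV 7488001 stood at 2944, 4803 and 6710.0 CPM in nrde-3 set-25, against 9081, 11199 and 11999 CPM in N2, with a log2 fold change of -1.16. That call was lost when nrde-3 set-25 replicate a or b, or N2 replicate b or c, was left out, with adjusted p from 0.0560 to 0.160. I 15066501 stood at 1892, 1061 and 1329 CPM in nrde-3 set-25, against 5643, 9722 and 4936 CPM in N2, and averaged 21056 CPM in lin-61. All 3 were also lower than N2 on average in nrde-3 and lin-61 set-25. The means were 3298 and 2490.0 CPM for IV 11326501, 4007 and 2186 CPM for IV 7488001, and 3322 and 1809 CPM for I 15066501. In lin-61, which shares the N2 prefix, IV 11326501 averaged 9385 CPM and IV 7488001 10302 CPM, near N2. The nrde-3 mean of I 15066501 rests on uneven libraries, at 8334, 593 and 1038 CPM, of which replicate a lies above the N2 mean of 6767 CPM. In the additive model the fitted log2 changes of IV 7488001 and I 15066501 had the opposite sign, at 0.39 and 0.75, and neither was called.

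The shares of rises and falls differed with the level of a window. Of windows with a mean of 0.1 to 1 CPM over all 21 libraries, 19.4% were higher and 3.96% lower in nrde-3 set-25, and the median log2 fold change was 0.42. At 1 to 10 CPM the shares were 16.5% and 17.6%. At 10 to 100 CPM they were 4.70% and 26.6%, and at 100 CPM or more 2.29% and 30.2%, with a median log2 fold change of -0.26. The size of the called changes also turned with level: the median was 2.30 for rises and -1.47 for falls at 0.1 to 1 CPM, and 0.86 for rises and -1.19 for falls at 100 CPM or more. The class includes the compared libraries, so a raised window sits higher in this order than its wild-type level alone would place it. The filter on low counts also drew on all libraries, so low windows silent in N2 were tested only where other genotypes held reads. The nrde-3 set-25 libraries were also shallower than those of N2. The part that filter and depth have in these shares was not tested.

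**Figure D4:**
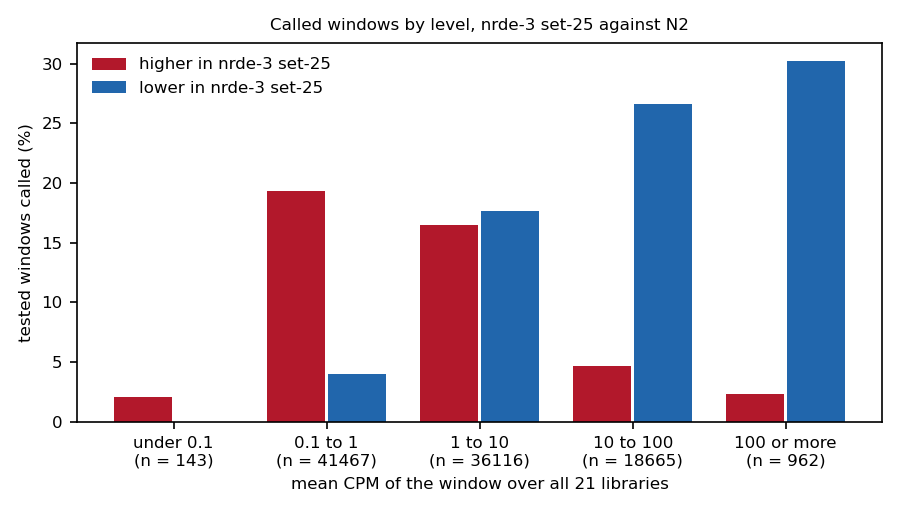
Percent of tested windows called higher (red, left bar) and lower (blue, right bar) in nrde-3 set-25 than in N2, by mean CPM over all 21 libraries, with the number of windows under each class. The higher share falls to 2.29% and the lower share reaches 30.2% at 100 CPM or more.

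Raised windows were more frequent in the middle of the chromosomes than in their outer parts, where repeats and methylated H3 lysine 9 are concentrated. With the outer 25% at each end taken as an arm, 18.3% of tested windows in centres and 11.7% in arms were higher, and 12.5% in centres and 15% in arms were lower. Among windows of 0.1 to 1 CPM, 24.8% in centres and 13.8% in arms were higher. Among those of 1 to 10 CPM the shares higher were 20.7% in centres and 11.9% in arms. Above that the order turned: at 10 to 100 CPM 4.59% in centres and 4.92% in arms were higher, and at 100 CPM or more 1.95% in centres and 3.05% in arms. Windows are neighbours on a chromosome and not replicates, so these shares carry no test.

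Chromosomes V and X stood out for rises. On X 19.4% of tested windows were higher and 11.5% lower, and on V 19.7% and 12.4%. All autosomes together, V included, had 14.5% and 14.02%. The centres of V and X reached 23.9% and 23.3% higher. At the other end, I had 11.5% and III 10.7% higher, and the right arm of III had 8.08% higher and 18.6% lower. The chromosomes also differed in level. The median N2 level of tested windows was 0.861 CPM on V and 0.772 CPM on X, against 1.98 CPM on I and 2.03 CPM on III. Low windows were raised more often, and the chromosomes were not compared within level classes. In the outermost 100 kb of the chromosomes 10.9% were higher and 11.02% lower. In the additive model 11.5% were higher on X, 10.07% on V and 6.56% on autosomes, with 8.64% in centres and 5.79% in arms. For lowered windows that model turned the order, with 1.10% in centres and 0.698% in arms. Without the libraries labelled met-2 it gave 6.80% higher on X, 6.17% on V and 3.86% on autosomes. Centres then had 4.99% higher and 1.06% lower, and arms 3.50% and 0.980%. Within the prefix 1121, nrde-3 set-25 against nrde-3 gave 3.32% higher on X, 4.03% on V and 2.29% on autosomes, with 2.73% in centres and 2.13% in arms.

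**Figure D5:**
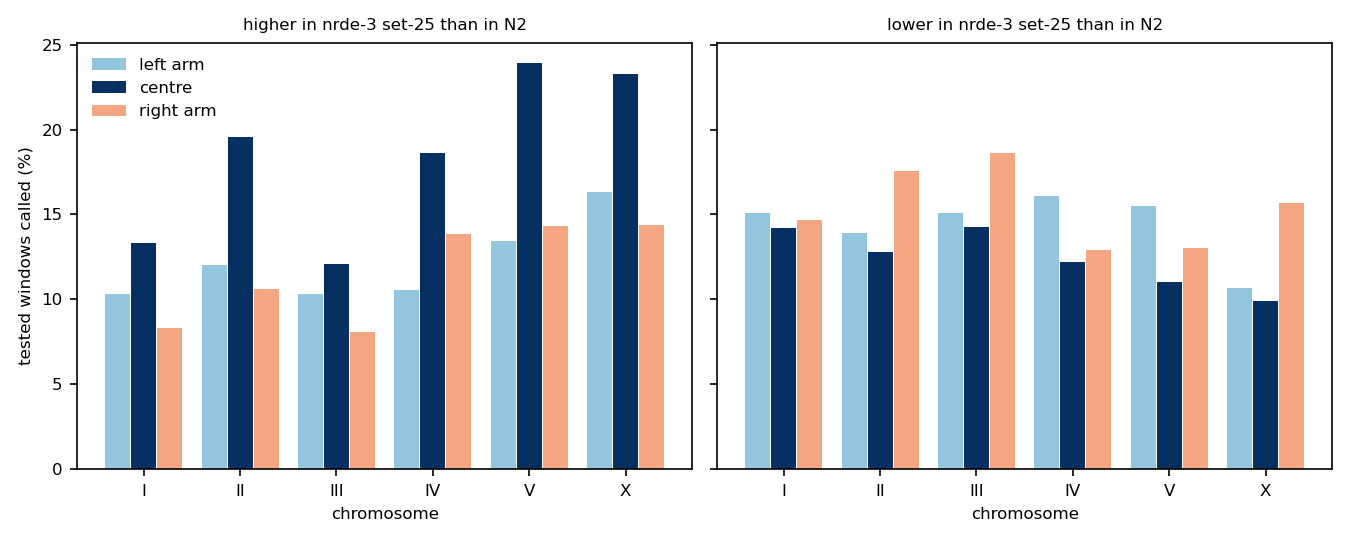
Percent of tested windows called higher (left panel) and lower (right panel) in nrde-3 set-25 than in N2, by chromosome, for the left arm, centre and right arm (arms are the outer 25% at each end). Centres have the highest share of raised windows on 6 of 6 chromosomes, up to 23.9% on V.

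The share of all reads on X was 9.32, 8.91 and 8.28% in nrde-3 set-25 and 7.70, 7.46 and 7.40% in N2, so the groups did not overlap. The means were 8.84 ± 0.52% and 7.52 ± 0.16% (SD, n = 3 each), and the exact permutation test gave p = 0.1, the smallest that 3 against 3 allows, or 0.175 after Benjamini-Hochberg adjustment over 7 shares. The X share averaged 8.19% in nrde-3, 9.80% in lin-61 set-25 and 8.45% in lin-61. Chromosome IV took 19.9 ± 1.53% of the reads in nrde-3 set-25 and 24.1 ± 1.42% in N2, and II took 16.4 ± 0.24% and 15.1 ± 0.29% (exact p = 0.1 for each). The autosomal arms together took 29.6 ± 1.09% in nrde-3 set-25 and 31.0 ± 1.31% in N2, a difference within the spread of the libraries (exact p = 0.3).

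More of the genome was read in the double mutant. At a common depth of 22275571 reads, windows with at least 1 read made up 77.9, 72.2 and 69.2% of all windows in nrde-3 set-25 and 64.4, 64.7 and 65.9% in N2. Each nrde-3 set-25 library lay above every N2 library, by a mean of 16289 windows (exact permutation p = 0.1, the smallest possible). Without thinning there were 158157, 148233 and 138739 such windows in nrde-3 set-25, against 153973, 151319 and 156618 in the deeper N2 libraries. At the common depth lin-61 set-25 had 146186 to 156306 windows, nrde-3 132058 to 141676 and lin-61 131578 to 136103. With at least 5 reads required, the shares were 50.5, 46.5 and 44.4% in nrde-3 set-25 and 39.3, 39.2 and 37.8% in N2.

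Stray reads moved less clearly. In 38922 windows that were nearly empty in the lin-61 and nrde-3 libraries, the mean level was 0.0175, 0.00923 and 0.00869 CPM in nrde-3 set-25, against 0.00627, 0.00684 and 0.0117 CPM in N2 (exact permutation p = 0.5). The groups overlap, and nrde-3 set-25 replicate a, the library with the most detected windows, was the highest. After this level was subtracted, 13312 windows were higher and 12667 lower.

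Within the prefix 1121 fewer windows were called. Against nrde-3, 2392 windows were higher and 226 lower (2.69% in either direction), so most calls were rises. Against lin-61 set-25, 596 were higher and 1623 lower (2.28%). These counts depended on single libraries. Against nrde-3 there were 481 higher and 20 lower when its replicate c was left out. Leaving out replicate a of nrde-3 set-25 gave 663 higher and 29 lower against nrde-3. Leaving out its replicate b gave 1766 higher and 60 lower against nrde-3, and 192 higher and 348 lower against lin-61 set-25. Leaving out its replicate c gave 1454 higher and 60 lower against nrde-3, and 176 higher and 393 lower against lin-61 set-25. Leaving out nrde-3 replicate a or b gave 989 or 1423 higher and 324 or 122 lower. Leaving out lin-61 set-25 replicate b gave 1063 higher and 5036 lower, and leaving out replicate c of that genotype gave 171 and 295. Depth and spread differ between these groups, so the counts do not rank the sizes of the effects.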

How the data were processed

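Total RNA of whole early embryos was depleted of ribosomal RNA and sequenced, per the labels' protocols, from TruSeq libraries made after a DNase step. The authors deposited raw read counts per window of 500 bp, not normalized, and the genome build was ce10, per the submitters' processing notes. The aligner, the counting tool and the handling of reads with several matches are not given in the sources used here. Columns were matched to genotypes by name, and 6 columns of per-sample values that matched no sample were not used. Replicates are called a, b and c as the columns have them, since the labels do not link these letters to numbers.

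A quasi-likelihood model of edgeR 4.0.16, run under R 4.3.3, was fitted to all 21 libraries at once, with TMM scaling, the filterByExpr minimum count of 10 and a coefficient for each genotype, leaving 14 residual degrees of freedom. Calls use a Benjamini-Hochberg adjusted p below 0.05 over all 97353 windows tested. The scripts were tested on simulated data. Alternatives were DESeq2 1.42.0, RLE scaling, no filter, a 2-fold threshold, subtraction of the level in quiet windows, an additive model with a prefix term, subsets of libraries and each library left out in turn. Single values per library were compared by exact 2-sided permutation tests in scipy 1.17.1. Intervals and floors cover counting error only.

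Windows named are those called, averaging 1 log2 CPM or more over all 21 libraries, with no overlap between groups. Of these, the 10 highest and 10 lowest fold changes were taken, 1 per region. Added are the 3 windows of each direction with the lowest adjusted p, the 3 with the highest level, the 4 widest regions, and the lowest lowered region on III and on X. X 372001 and I 7153501 are under this rule; their stretches were singled out after their values were seen. The comparison and these rules were chosen with earlier results of these data known. No gene names were attached, because the annotation at hand is of another build, and no sequence is shown.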

Additional observations from a re-analysis of the deposited data

How the results depend on the processing

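The counts against N2 were 15889 higher and 13761 lower with DESeq2, 15061 and 12949 with RLE scaling, 13845 and 13525 without a filter, 16927 and 16570 from the 6 libraries alone, and 15090 and 14675 without the libraries labelled met-2. They moved to 7146 and 893 with a prefix term, to 3739 and 886 with that term and without the libraries labelled met-2, and to 4991 and 2057 when tested against a 2-fold change. Leaving out each library in turn gave 9113 to 12515 higher and 9029 to 12422 lower. Against nrde-3 the counts were 630 lower with DESeq2 and 3667 higher without a filter, and leaving out single libraries gave 481 to 1766 higher and 20 to 324 lower. Against lin-61 set-25, DESeq2 gave 1024 higher and 2653 lower, no filter 2574 lower, and single libraries left out 171 to 1063 higher and 295 to 5036 lower. Without a library more windows passed the filter, and the cause of these shifts was not tested.

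The fitted log2 change took the opposite sign, once the prefix had a term in the additive model, at V 14686501 (-0.27), V 17117501 (1.42), V 17130001 (0.81), V 17428501 (0.86), IV 7488001 (0.39), I 15066501 (0.75), X 8292501 (0.24), III 1078001 (0.37) and X 16558501 (1.95). Without the libraries labelled met-2 as well, it did so at V 14686501 (-0.16), IV 7488001 (1.34), IV 11326501 (0.41), I 15066501 (0.067), X 8292501 (0.40) and III 1078001 (0.25). None of these was called. At III 13288001 the additive model has no usable estimate, since both set-25 groups hold 0 reads.

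No paired analysis was possible because the labels do not link the letters of the columns to numbered replicates. Depth limits the windows that are nearly silent in N2, where ratios rest on few reads.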
